A study of Homo sapiens with 9 samples.

Results

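The MYC, MAX and MXD network is a family of transcription factors that pair with one another and compete for the same DNA sites. Here it comprised 10 genes taken by name: MYC, MYCL, MAX, MXD1, MXD3, MXD4, MXI1, MNT, MLX and MLXIP. All 10 were found among the 60609 genes counted, and all 10 passed the filter on low counts that left 26412 genes for testing. RNA was sequenced from MCF-10A, an immortal but non-tumorigenic epithelial line from human breast, in 3 genotypes of PIK3CA, which encodes the p110-alpha catalytic subunit of PI 3-kinase, with 3 libraries each. WT is the parental line, and the E545K and H1047R lines are knock-ins in it, carrying the change in the helical or in the kinase domain. WT cells had been maintained in 20 ng/ml EGF (epidermal growth factor) and both knock-in lines with 0 ng/ml, all in 5% horse serum with insulin, hydrocortisone and cholera toxin. For the last 24 h every line was in 0.2 ng/ml EGF and 1% charcoal-stripped serum with the same 3 supplements. The study compared isogenic cells bearing either change, and the labels name no clone, so each genotype is treated as a single line. Genotype and earlier EGF supply cannot be told apart in either comparison with WT.

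Proteins of this family carry a basic helix-loop-helix-zipper domain and bind DNA as pairs. MYC pairs with MAX and activates genes of ribosome building, nucleotide supply and cell growth at E-box sites. The MXD proteins, MXI1 and MNT also pair with MAX, recruit the SIN3 co-repressor and lower transcription at such sites. MLX is a second hub, which pairs with MLXIP (MondoA), with MLXIPL (ChREBP) and with some MXD proteins. MLXIP with MLX senses glucose metabolites and drives TXNIP and ARRDC4 through paired E-box-like sites. PI 3-kinase and ERK signalling are known to act on MYC protein stability, which RNA counts do not show.

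The DNA element on which the network converges is short, and its position in promoters of these genes is shown here because proteins of the family bind it and because TXNIP and ARRDC4 are known targets of MLXIP with MLX. The E-box CACGTG and a paired element, 2 copies of CACGNG with 5 bases between them (N is any base), were searched on both strands of RefSeq promoter windows (GRCh38.p14) of 300 bases, 250 before and 50 after the start site. A window was matched for 14 of the 15 genes formed by the 10 members, MYCN, MLXIPL, MGA, TXNIP and ARRDC4. MYC had none in the table. CACGTG occurred in 4 of the 14 windows and in 7.26% of 35116 promoters. The paired element occurred in the TXNIP window alone among the 14 and in 0.057% of all promoters. TXNIP was already known as a target through paired sites, so its match is not a new finding. The pattern found no match in the window of ARRDC4, the other such target, and may miss looser paired sites. Matches are capitalised below, 5′ to 3′ on the gene's strand, in stretches that end before the gene's first annotated exon base.
TXNIP, chr1:145996580-145996739, minus strand, paired element at bases −88 to −72 from the start site: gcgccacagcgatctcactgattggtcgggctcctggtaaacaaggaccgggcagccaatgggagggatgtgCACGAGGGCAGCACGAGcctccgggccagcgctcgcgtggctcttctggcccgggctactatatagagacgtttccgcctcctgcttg
ARRDC4, chr15:97960463-97960528, plus strand, E-box at −210 to −205: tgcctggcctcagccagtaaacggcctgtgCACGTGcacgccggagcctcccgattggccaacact
MXD4, chr4:2262312-2262359, minus strand, E-box at −238 to −233: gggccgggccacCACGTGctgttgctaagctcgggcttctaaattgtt
MNT, chr17:2401218-2401283, minus strand, E-box at −193 to −188: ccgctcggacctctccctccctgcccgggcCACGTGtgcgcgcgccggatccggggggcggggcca
MLX, chr17:42567020-42567067, plus strand, E-box at −50 to −45: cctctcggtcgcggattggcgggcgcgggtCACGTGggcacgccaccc
The 2 elements do not coincide in the TXNIP window, which holds no CACGTG. The letters GTAAACA, a core that FOXO factors bind, were also searched. They lie at −124 to −118 of TXNIP, in 1 of the 14 windows and in 3.42% of all promoters. A match is a description of these letters and not evidence of binding.

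Values are CPM, the count scaled by a library size after TMM normalisation, and a log2 fold change is given ± an approximate standard error (SE). A gene was called at an edgeR quasi-likelihood p under 0.05 after Benjamini-Hochberg adjustment over all genes tested. Total counts ranged from 95091894 to 136132315 in WT, 95533991 to 134245702 in E545K and 377093507 to 605972919 in H1047R. The H1047R libraries stand in a table of their own and varied more between replicates (biological coefficient of variation 0.212, against 0.0328 in WT and 0.0289 in E545K), so table, depth and genotype cannot be told apart. PIK3CA RNA was present in every library (37.4 to 47.9 CPM), and counts per gene cannot tell the alleles apart. All 10 epithelial markers reached 1 CPM in at least 1 library, with summed levels of 35809 to 36553 CPM in WT, 30516 to 31102 in E545K and 35178 to 39744 in H1047R. The sums rest mostly on KRT5, KRT17 and KRT6A (means of 13940, 12655 and 4770 CPM in WT). Of the 10, 8 were called lower and 1 higher in E545K against WT, beside 18.9% and 17.7% of all genes. In H1047R against WT, 6 were lower and 3 higher, beside 28.1% and 27.4%. Of the markers of other cell types, 5 of 6 immune genes (PTPRC among them), 3 of 4 endothelial genes and 4 of 6 fibroblast genes stayed under 1 CPM in every library. The exceptions, as means in WT, E545K and H1047R, were CD68 (10.9, 7.04 and 5.4 CPM) and KDR (8.66, 10.7 and 22.5). The others were COL1A1 (47.4, 59.5 and 66.6) and DCN (47, 7.76 and 13.1). Summed proliferation markers (12 genes) were 220 to 233 CPM in WT, 297 to 298 in E545K and 89.9 to 109 in H1047R. Of the 12, 9 were called higher and 0 lower in E545K against WT, beside 17.7% and 18.9% of all genes. Against WT, H1047R had 1 higher and 11 lower, beside 27.4% and 28.1%. The 1 rise in H1047R was of PCNA (0.38, edgeR adjusted p = 7.11e-05), with means of 23 CPM in WT, 39.4 in E545K and 30.1 in H1047R. Summed squamous differentiation markers (11 genes) were 46.5 to 47.3, 58.7 to 61.6 and 803 to 848 CPM. Of the 11, 7 were called higher and 2 lower in E545K against WT, and 10 and 1 in H1047R against WT. SPRR1B was called lower in both lines (means of 20.5, 8.68 and 16.2 CPM) and FLG in E545K (4.46, 3.31 and 9.94). The H1047R sum rests mostly on KRT10, KLK7 and CASP14 (means of 281, 214 and 178 CPM). In bulk RNA, fewer cells of a type and less RNA per cell cannot be told apart.

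The network moved differently in the 2 knock-in lines. In E545K, MYC and MXD1 RNA rose and 5 members fell, namely MYCL, MXD4, MXI1, MNT and MLXIP. The fall of MXD4 was not called in many of the alternative analyses (below). In H1047R, MYC fell together with MYCL, MLXIP and the counts assigned to MXD3, most of which may belong to an overlapping gene (below), while MAX, MXD1, MXD4 and MXI1 rose. Called members numbered 7 of 10 in E545K against WT, where 36.6% of all genes were called. They numbered 8 of 10 in H1047R against WT (55.5% of all genes) and 8 of 10 in H1047R against E545K (53.2%), the last with 6 higher and 2 lower in H1047R. No member was called at 2-fold or more, as 7.1%, 17.4% and 15% of all genes were in the 3 comparisons. Libraries of the compared genotypes did not overlap for 7, 9 and 8 of the 10 members in the 3 comparisons, beside 54.2%, 60.1% and 58.8% of all genes. The median log2 fold change of the members was −0.09, −0.02 and 0.23, beside 0.00, 0.02 and 0.02 over all genes. The comparisons with WT share the WT libraries, and those with H1047R share the H1047R libraries.

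**Figure D1:**
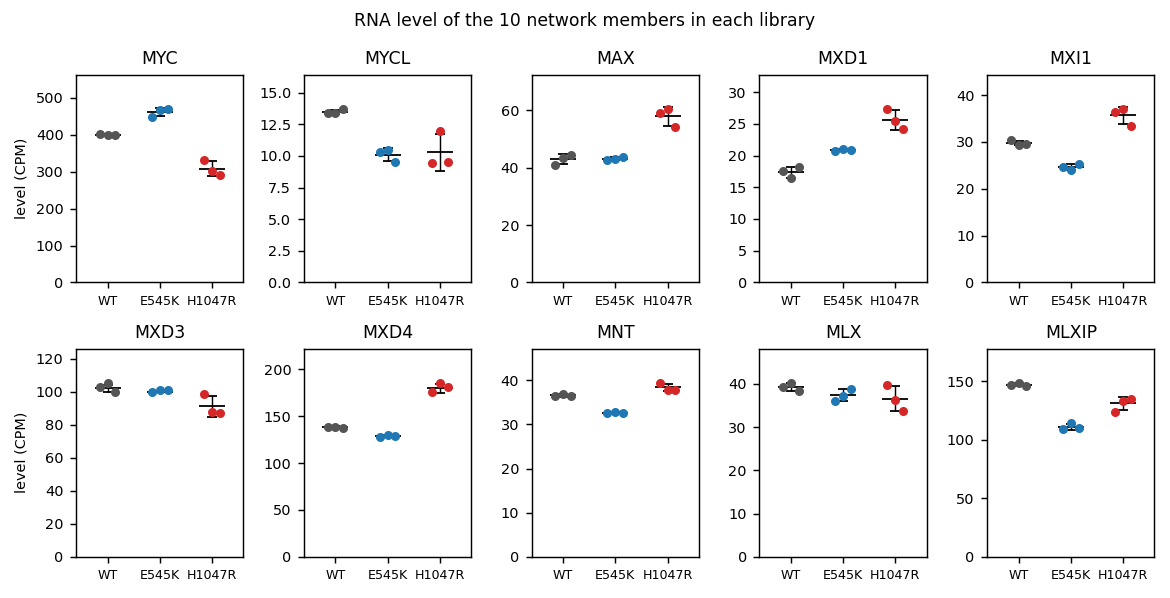
RNA level (CPM, linear axes from 0) of the 10 members in each library of WT, E545K and H1047R; points are libraries, the long line is the mean and the error bars are the SD of 3 libraries. MYC stood highest in E545K and lowest in H1047R, while MAX, MXD1, MXD4 and MXI1 stood highest in H1047R.

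MYC (ENSG00000136997.19, chromosome 8, 127735434 to 127742951, plus strand, hg38) is an activating member, a target of growth-factor signalling and the gene for which the family is named. Its libraries held 401, 398 and 400 CPM in WT, 448, 467 and 469 in E545K cells, and 331, 303 and 291 in H1047R cells. The 3 genotypes did not overlap, with E545K above WT and H1047R below it. In E545K, MYC rose from 400 ± 1.33 to 461 ± 11.5 CPM (SD, n = 3 libraries), a log2 fold change of 0.21 ± 0.05 (edgeR adjusted p = 0.00263). In H1047R it was at 308 ± 20.9 CPM, a change of −0.38 ± 0.05 from WT (edgeR adjusted p = 5.91e-06) and of −0.58 ± 0.05 from E545K (edgeR adjusted p = 7.21e-08). These calls held in all 20 alternative analyses of each comparison. Summed proliferation markers were likewise highest in E545K and lowest in H1047R (values above), and their part in the result was not tested. MYC shares 4.23% of its exon bases with CASC11 on the opposite strand, and the counting did not use strand.

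MYCL (ENSG00000116990.11, chromosome 1, 39895426 to 39902256, minus strand), a paralog of MYC that also pairs with MAX, was the least abundant member. It measured 13.4, 13.4 and 13.7 CPM in WT, 10.3, 10.5 and 9.49 in E545K cells, and 9.47, 12 and 9.5 in H1047R cells. Every knock-in library was below every WT library, and the 2 knock-in lines overlapped. It fell by 0.42 ± 0.09 in E545K (edgeR adjusted p = 0.00138) and by 0.38 ± 0.08 in H1047R (edgeR adjusted p = 0.00114). The difference between the knock-in lines was 0.03 ± 0.08 (edgeR adjusted p = 0.766), and its sign turned without H1047R replicate 2 (−0.09) or E545K replicate 3 (−0.01). The third paralog, MYCN, was at 2, 0 and 1 counts in WT, 0, 0 and 5 in E545K cells, and 0, 0 and 0 in H1047R cells, and was not tested. A count of 0 allows up to 3 counts in a library.

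MAX (ENSG00000125952.20, chromosome 14, 65006174 to 65102695, minus strand), the obligate partner of MYC and of the repressors, measured 41, 43.5 and 44.5 CPM in WT, 42.8, 43.2 and 43.7 in E545K cells, and 59.1, 60.4 and 54.1 in H1047R cells. WT and E545K overlapped, and all H1047R libraries were higher. MAX rose by 0.43 ± 0.05 in H1047R against WT (edgeR adjusted p = 2.14e-06) and was 0.42 ± 0.05 above E545K (edgeR adjusted p = 3.18e-06). In E545K the change was 0.01 ± 0.05 (edgeR adjusted p = 0.926). Overlapping genes share 16.1% of MAX exon bases. The sharing genes FNTB and CHURC1-FNTB themselves changed by 0.46 and 0.53 in H1047R against WT and by 0.23 and 0.16 in E545K against WT. If CHURC1-FNTB reads lay evenly, they would give 7.19 of the 43 CPM of MAX in WT, 8.05 of 43.2 in E545K and 10.4 of 57.9 in H1047R. These are 16.7%, 18.6% and 17.9%. FNTB reads would give 7.46%, 8.72% and 7.64%. A read can be counted for both genes, so these shares cannot be added, and the true contribution was not tested.

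Among the MAX-pairing repressors, MXD1 (ENSG00000059728.11, chromosome 2, 69897688 to 69942945, plus strand), classically induced during terminal differentiation, was the member that rose in both lines. It measured 17.6, 16.4 and 18.2 CPM in WT, 20.7, 21.1 and 20.8 in E545K cells, and 27.3, 25.4 and 24.1 in H1047R cells. The 3 genotypes formed separate ranges in that order. The log2 fold change was 0.26 ± 0.06 in E545K (edgeR adjusted p = 0.00163) and 0.56 ± 0.05 in H1047R (edgeR adjusted p = 4.99e-07), and H1047R exceeded E545K by 0.29 ± 0.05 (edgeR adjusted p = 0.000324). Summed squamous markers also rank in that order, with H1047R far above the others, although SPRR1B and FLG among them do not. The part of these markers in the result was not tested. SNRNP27 on the same strand shares 3.73% of MXD1 exon bases. If its reads lay evenly, they would give 11.1%, 9.01% and 8.23% of the MXD1 counts in WT, E545K and H1047R. The true contribution was not tested.

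MXI1 (ENSG00000119950.21, chromosome 10, 110207605 to 110287365, plus strand), a MAX-pairing antagonist of MYC also known as MXD2, moved in opposite directions in the 2 lines. Its libraries held 30.4, 29.4 and 29.6 CPM in WT, 24.7, 24.1 and 25.3 in E545K cells, and 36.5, 37 and 33.5 in H1047R cells, with no overlap. It fell by 0.27 ± 0.05 in E545K (edgeR adjusted p = 0.00042) and rose by 0.26 ± 0.05 in H1047R (edgeR adjusted p = 0.000241). Between the lines the difference was 0.53 ± 0.05 (edgeR adjusted p = 2.33e-07).

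MXD4 (ENSG00000123933.17, chromosome 4, 2247432 to 2262109, minus strand), another MAX-pairing repressor, was at 139, 139 and 138 CPM in WT, 128, 130 and 129 in E545K cells, and 176, 185 and 181 in H1047R cells. All H1047R libraries lay above WT and all E545K libraries below it. MXD4 rose by 0.38 ± 0.04 in H1047R (edgeR adjusted p = 3.66e-07) and was 0.49 ± 0.04 higher there than in E545K (edgeR adjusted p = 3.29e-08). The E545K difference of −0.11 ± 0.04 (edgeR adjusted p = 0.0316) was not called when any WT or E545K library was left out (−0.10 to −0.12, edgeR adjusted p = 0.0748 to 0.103). It was also not called with upper-quartile scaling (edgeR adjusted p = 0.0501), no filter (0.0928), at least 1 CPM in all 9 libraries (0.0601) or a replicate block (0.054). With library totals only it was −0.01 (edgeR adjusted p = 0.817).

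MXD3 (ENSG00000213347.10, chromosome 5, 177301461 to 177312757, minus strand) is an MXD protein linked to S phase rather than to differentiation. It was at 103, 105 and 99.9 CPM in WT, 100, 101 and 101 in E545K cells, and 98.6, 87.7 and 87.3 in H1047R cells. WT and E545K overlapped (−0.03 ± 0.05, edgeR adjusted p = 0.709), and the H1047R libraries were lower than both. It fell by 0.17 ± 0.05 in H1047R against WT (edgeR adjusted p = 0.00755). The difference of −0.14 ± 0.05 from E545K (edgeR adjusted p = 0.0221) was not called without H1047R replicate 2 (−0.11, edgeR adjusted p = 0.101) or without E545K replicate 1, 2 or 3 (edgeR adjusted p = 0.0598, 0.0759 and 0.0709). Of its exon bases, 40.2% are shared, 22.3% with PRELID1 on the opposite strand and 18% with RAB24. The shared stretch of 1148 bases is 62.4% of the exon bases of PRELID1, which is at 74.4 CPM per kb in WT. If PRELID1 reads lay evenly, they would give 85.4 of the 102 CPM of MXD3 in WT, 83 of 100 in E545K and 64.5 of 91.2 in H1047R (83.4%, 82.6% and 70.7%). PRELID1 fell by 0.41 and RAB24 rose by 1.06 in H1047R against WT. The level of MXD3 and its change therefore cannot be told apart from those of PRELID1.

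MNT (ENSG00000070444.15, chromosome 17, 2384073 to 2401104, minus strand), a broadly expressed MAX-pairing repressor, measured 36.4, 36.9 and 36.4 CPM in WT, 32.7, 32.8 and 32.5 in E545K cells, and 39.3, 37.9 and 37.9 in H1047R cells. The H1047R libraries were above and the E545K libraries below those of WT. MNT fell by 0.16 ± 0.04 in E545K (edgeR adjusted p = 0.00424). The H1047R difference from WT was 0.07 ± 0.04 (edgeR adjusted p = 0.142), while H1047R exceeded E545K by 0.23 ± 0.04 (edgeR adjusted p = 0.000127). A gene on the opposite strand lies wholly on its exons and covers 12.2% of their bases.

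**Figure D2:**
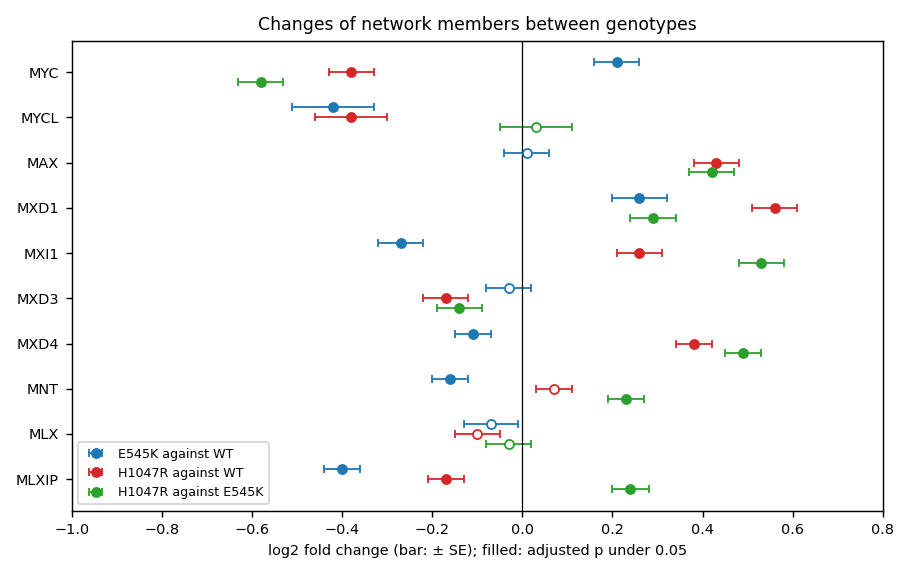
Log2 fold change of each member in E545K against WT (blue), H1047R against WT (red) and H1047R against E545K (green), bars ± SE; filled points have an edgeR adjusted p under 0.05. MYC was positive in E545K (0.21) and negative in H1047R (−0.38), and MXI1 and MXD4 had the opposite pattern.

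MLX (ENSG00000108788.11, chromosome 17, 42567068 to 42573239, plus strand), the hub of the metabolite-sensing arm, was called in none of the 3 comparisons. It measured 39.4, 40.1 and 38.4 CPM in WT, 36, 37.3 and 38.9 in E545K cells, and 39.7, 36.2 and 33.8 in H1047R cells, and all 3 ranges overlapped. The log2 differences were −0.07 ± 0.06, −0.10 ± 0.05 and −0.03 ± 0.05 for E545K against WT, H1047R against WT and H1047R against E545K (edgeR adjusted p = 0.35, 0.126 and 0.664). Without H1047R replicate 1, MLX was called lower in H1047R than in WT (−0.16, edgeR adjusted p = 0.00435). PSMC3IP on the opposite strand shares 18.1% of its exon bases.

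MLXIP (ENSG00000175727.14, chromosome 12, 122078756 to 122147344, plus strand), which encodes MondoA and shares no exon bases with another gene, had lower values in both lines. Its libraries held 147, 148 and 146 CPM in WT, 109, 114 and 110 in E545K cells, and 124, 133 and 135 in H1047R cells, without overlap. It fell by 0.40 ± 0.04 in E545K (edgeR adjusted p = 1.96e-06) and by 0.17 ± 0.04 in H1047R (edgeR adjusted p = 0.00297), and H1047R was 0.24 ± 0.04 above E545K (edgeR adjusted p = 0.000185). The H1047R call was lost with upper-quartile scaling (−0.11, edgeR adjusted p = 0.0597) and with protein-coding genes alone (−0.10, edgeR adjusted p = 0.07). MLXIPL, which encodes the related glucose sensor ChREBP, was low in every library, at 2.47, 2.41 and 2.75 CPM in WT, 1.13, 1.1 and 1.13 in E545K cells, and 1, 0.721 and 0.893 in H1047R cells. It fell by 1.18 ± 0.15 in E545K (edgeR adjusted p = 2.09e-05) and by 1.55 ± 0.15 in H1047R (edgeR adjusted p = 3.57e-07). The difference between the lines, −0.36 ± 0.15, missed the threshold (edgeR adjusted p = 0.0553) and was called without H1047R replicate 1 (−0.47, edgeR adjusted p = 0.0161), with library totals only (−0.50, 0.0116), with H1047R counts thinned (−0.41, 0.0359) and by DESeq2 (−0.37, adjusted p = 0.0486).

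TXNIP and ARRDC4, the arrestin-family targets of MLXIP and MLX whose promoter elements are printed above, went apart in E545K. TXNIP, which restrains glucose uptake, was at 297, 302 and 297 CPM in WT, 125, 122 and 124 in E545K cells, and 390, 438 and 406 in H1047R cells. ARRDC4 was at 26, 24.6 and 25.3 CPM in WT, 44.2, 43 and 44.6 in E545K cells, and 96.6, 104 and 92.4 in H1047R cells. TXNIP was therefore lowest in E545K and highest in H1047R, whereas ARRDC4 stepped up from WT to E545K to H1047R, both without overlap. In E545K, TXNIP fell by 1.27 ± 0.04 (edgeR adjusted p = 1.9e-11) and ARRDC4 rose by 0.80 ± 0.05 (edgeR adjusted p = 7e-09). Both rose in H1047R against WT, by 0.46 ± 0.04 (edgeR adjusted p = 3.06e-07) and 1.95 ± 0.05 (edgeR adjusted p = 1.63e-13). H1047R exceeded E545K by 1.73 ± 0.04 for TXNIP (edgeR adjusted p = 4.19e-13) and by 1.15 ± 0.05 for ARRDC4 (edgeR adjusted p = 5.35e-11). TXNIP is also a known FOXO target.

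**Figure D3:**
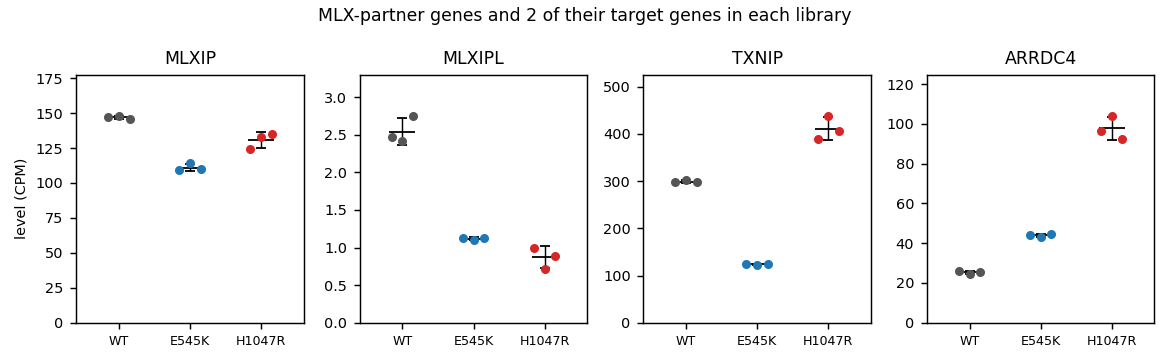
RNA level (CPM, linear axes from 0) of MLXIP, MLXIPL, TXNIP and ARRDC4 in each library; points are libraries, the long line is the mean and bars are the SD of 3 libraries. TXNIP fell to between 122 and 125 CPM in E545K and reached 390 to 438 in H1047R, while ARRDC4 was higher in both knock-in lines than in WT.

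MGA, a large MAX-pairing repressor outside the 10 members, was at 19.4, 18.5 and 20.5 CPM in WT, 19.4, 17.7 and 18.4 in E545K cells, and 30.9, 30.3 and 35.9 in H1047R cells. WT and E545K overlapped (−0.07 ± 0.07, edgeR adjusted p = 0.457), and H1047R stood above both. It rose by 0.73 ± 0.07 in H1047R against WT (edgeR adjusted p = 2.02e-07) and was 0.81 ± 0.07 above E545K (edgeR adjusted p = 9.79e-08).

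Levels of different members were compared per kilobase of the deposited exon length. MYC ranked first in every genotype, at 87.2 CPM per kb in WT, 101 in E545K and 67.3 in H1047R. MXD4 followed, at 20.2, 18.7 and 26.3 CPM per kb. MXD3 was listed at 19.9, 19.5 and 17.7 CPM per kb, but most of this may be PRELID1, so it is given no place in the order. In WT the order continued with MLXIP 10.6, MLX 9.23, MAX 6.87, MXI1 5.04, MNT 4.2, MXD1 2.74 and MYCL 2.66 CPM per kb, of which MXD1 and MYCL overlapped. Neighbours in the E545K order did not overlap, and MLX (8.78) stood above MLXIP (8.02). In H1047R, MAX (9.25) overlapped with both MLXIP (9.45) and MLX (8.59), and MXD1 (4.03) was above MYCL (2.04).

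The balance of RNAs for MAX partners differed accordingly, as a description from the same values. Of the summed level per kb of MYC, MYCL, MXD1, MXD3, MXD4, MXI1 and MNT, MYC made up 61.4, 61.2 and 61.7% in WT, 65.6, 66.3 and 66.5% in E545K cells, and 54, 52 and 51.8% in H1047R cells. MXD1, MXD4 and MXI1 together made up 19.8, 19.6 and 19.7% in WT, 17.5, 17.1 and 17.1% in E545K cells, and 26.9, 29.3 and 29.2% in H1047R cells. These 3 were all called higher in H1047R against WT, while MNT, a repressor not called there, is outside this group. With MXD3 left out of the sum, a choice made after seeing the data, MYC made up 71.4 to 71.5% in WT, 75.4 to 76.2% in E545K and 60.1 to 63% in H1047R, and the 3 repressors 22.8 to 23%, 19.6 to 20.1% and 31.4 to 33.9%. The genotypes did not overlap in either share, with or without MXD3. The MYC share was highest where the share of these repressors was lowest. Both are parts of 1 sum dominated by MYC, so their opposite order is largely arithmetic and not a separate result. MYC per kb divided by MAX per kb was 12.3 to 13.3 in WT, 14.3 to 14.8 in E545K and 6.84 to 7.65 in H1047R. MXD1 per kb divided by MYC per kb was 0.0298 to 0.0327 in WT, 0.0321 to 0.0334 in E545K and 0.0594 to 0.0606 in H1047R, so WT and E545K overlapped in this ratio although MXD1 and MYC each rose in E545K. MLXIP per kb divided by MLX per kb was 1.14, 1.14 and 1.17 in WT, 0.933, 0.942 and 0.868 in E545K cells, and 0.963, 1.13 and 1.23 in H1047R cells. In this ratio H1047R overlapped WT, and E545K lay below both. RNA shares do not give the amounts of protein pairs.

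**Figure D4:**
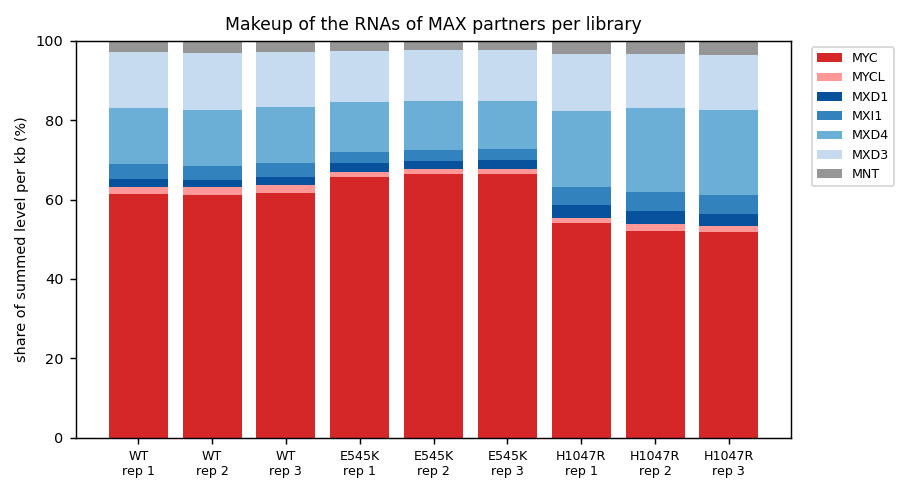
Share (%) of each MAX-partner RNA in the summed level per kb of MYC, MYCL, MXD1, MXI1, MXD4, MXD3 and MNT, 1 stacked bar per library from 0 to 100%. The MYC share was 65.6 to 66.5% in E545K and 51.8 to 54% in H1047R, and the MXD1, MXI1 and MXD4 shares were largest in H1047R; most of the MXD3 share may be PRELID1 reads.

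Genes that MYC is known to activate were taken as a list of 50, mostly of ribosome building, nucleotide supply and the cell cycle, and all 50 were tested. In H1047R, 35 of the 50 fell and 1 rose against WT, beside 28.1% and 27.4% of all genes, with a list median of −0.29. Against E545K, 45 fell in H1047R and 0 rose (27.3% and 25.9% of all genes), with a median of −0.40. Among them ODC1, the first enzyme of polyamine synthesis and a textbook MYC target, was at 44.8, 46 and 44.2 CPM in WT, 53, 52.2 and 54.4 in E545K cells, and 26.9, 25 and 23.2 in H1047R cells. ODC1 thus had the order of MYC, and H1047R was lower than E545K by 1.09 (−1.09 ± 0.05, edgeR adjusted p = 1.92e-10). The cyclin gene CCND2 fell furthest, from a mean of 165 CPM in WT and 121 in E545K to 1.68 in H1047R (−6.63 ± 0.10 and −6.19 ± 0.09). The nucleotide hydrolase gene DNPH1 fell by 1.07 in H1047R against WT. The telomerase gene TERT, with 12 to 33 counts in WT, 14 to 45 in E545K and 11 to 37 in H1047R despite the larger totals, changed by −2.10 and −2.39. The 1 rise against WT was of EIF4E, the cap-binding translation factor (0.14, edgeR adjusted p = 0.0414). Its libraries overlapped, and it was not called without WT replicate 1 or 2, any single E545K library, or H1047R replicate 1 or 2 (0.08 to 0.15, edgeR adjusted p = 0.0617 to 0.175). Summed proliferation markers were lowest in H1047R, and their part in the list's counts was not tested.

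In E545K against WT, 16 of the same 50 genes rose and 7 fell, beside 17.7% and 18.9% of all genes, with a median of 0.12. The ribosome-assembly genes RRP12 and RRS1 rose by 0.56 and 0.50, and the arginine methyltransferase gene PRMT3 by 0.51. CCND2 fell by 0.45, the prothymosin gene PTMA by 0.31 and the guanine-nucleotide enzyme gene IMPDH2 by 0.30. This count depends on the fit and the scaling. It was 31 and 9 with only the 2 genotypes fitted, and 27 and 9 by limma voom. With library totals as the only scaling, 32 rose and 4 fell (median 0.21), when the median of all genes moved from 0.00 to 0.10. The same scaling gave 0 and 43 in H1047R against WT, and 0 and 49 in H1047R against E545K, where the median of all genes was −0.02 and −0.12.

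Of 10 genes that MYC is known to hold down, 9 were tested. In E545K, 3 rose and 3 fell, and in H1047R against WT 6 rose and 2 fell, with medians of −0.06 and 0.19 (0.18 between the lines). As shares of the 9 these were 33.3% each in E545K, beside 17.7% higher and 18.9% lower of all genes, and 66.7% and 22.2% in H1047R, beside 27.4% and 28.1%. The cell-cycle inhibitor CDKN1A (p21) rose by 0.58 in E545K and 0.76 in H1047R, from 268 to 281 CPM in WT to 407 to 414 and 442 to 485 CPM. The stress gene GADD45B was at 68.4 to 70.5 CPM in WT, 26.5 to 27.6 in E545K and 73.8 to 87.6 in H1047R, falling by 1.35 in E545K. NDRG1, a differentiation-linked gene, fell by 0.70 in E545K and rose by 0.37 in H1047R. The inhibitor CDKN1B fell by 0.43 in E545K, where NDRG2 (0.27) and CEBPA (0.23) rose. NDRG2 was not called without WT replicate 3 (0.24, edgeR adjusted p = 0.0633) or E545K replicate 1 or 3 (0.25 and 0.22, edgeR adjusted p = 0.0535 and 0.0793). The transcriptional repressor HBP1 rose by 0.43 in H1047R, and GADD45A and CDKN1C fell there by 1.01 and 0.38. Between the lines 5 were higher and 3 lower in H1047R (25.9% and 27.3% of all genes), led by GADD45B (1.54), NDRG1 (1.07) and HBP1 (0.55), with GADD45A at −0.96 and CDKN1C at −0.32. CEBPA at −0.11 was called (edgeR adjusted p = 0.0419), but not without WT replicate 1, 2 or 3, E545K replicate 2 or 3, or H1047R replicate 2 (−0.09 to −0.11, edgeR adjusted p = 0.0597 to 0.174).

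**Figure D5:**
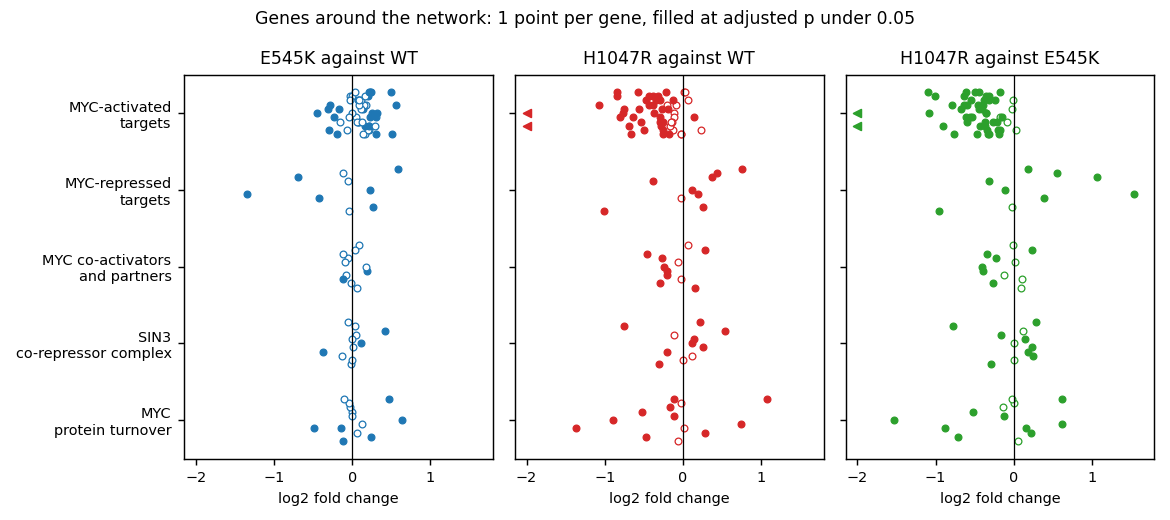
Log2 fold change of each gene in 5 lists around the network, 1 point per gene, in the 3 comparisons; filled points have an edgeR adjusted p under 0.05, and triangles at −2 mark genes under −2 (CCND2 and TERT). MYC-activated targets lay mostly below 0 in H1047R, with 35 of 50 called lower against WT and 45 of 50 against E545K.

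The cofactors were measured from lists of their own. Of 11 co-activators and partners of MYC, 1 rose and 1 fell in E545K against WT, RUVBL1 (0.19) and SMARCB1 (−0.12). RUVBL1 was not called without WT replicate 3 or any single E545K library (0.14 to 0.20, edgeR adjusted p = 0.0521 to 0.135), nor SMARCB1 without any single WT library or E545K replicate 2 or 3 (−0.11 to −0.14, edgeR adjusted p = 0.0513 to 0.141). In H1047R against WT, 2 rose and 6 fell. The chromatin-remodelling ATPase RUVBL2 fell by 0.46, the MYC-binding scaffold WDR5 by 0.29 and the acetyltransferase KAT2A by 0.27. BPTF, a subunit of the NURF remodeller, rose by 0.28. EP400, a chromatin remodeller of the TIP60 complex, was called at 0.15, but not without any single WT library or H1047R replicate 3 (0.08 to 0.16, edgeR adjusted p = 0.0504 to 0.102). Against E545K, 1 was higher and 5 were lower in H1047R. BPTF was higher by 0.24, and ACTL6A, RUVBL1 and RUVBL2 were at −0.41, −0.39 and −0.34. Of all genes, 17.7% and 18.9%, 27.4% and 28.1%, and 25.9% and 27.3% were called higher and lower in the 3 comparisons. Without H1047R replicate 1 or 3 the E545K counts were 2 and 2, and 3 and 2. The list medians were −0.02, −0.20 and −0.12 for E545K against WT, H1047R against WT and H1047R against E545K. With library totals as the only scaling the counts higher and lower were 3 and 0, 1 and 6, and 1 and 6 in the 3 comparisons.

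The SIN3 complex is the histone deacetylase assembly that MXD proteins recruit, and 11 of its genes were tested. In E545K 2 rose, SAP30 (0.42) and RBBP4 (0.11), and SIN3B fell by 0.37, beside 17.7% and 18.9% of all genes. RBBP4 was not called without any single WT or E545K library or H1047R replicate 2 (0.10 to 0.12, edgeR adjusted p = 0.0564 to 0.169). Against WT, 5 rose and 3 fell in H1047R, or 45.5% and 27.3% of the 11, beside 27.4% and 28.1% of all genes. The 5 became 3 without WT replicate 1, 2 or 3 and when only the 2 genotypes were fitted. SAP30 rose by 0.54, SAP18 by 0.25 and the scaffold SIN3A by 0.22, while the histone-binding subunit RBBP7 fell by 0.75, the deacetylase HDAC2 by 0.31 and SIN3B by 0.20. Against E545K the counts were also 5 and 3 (25.9% and 27.3% of all genes), with SIN3A (0.28), ARID4A (0.25) and SAP18 (0.24) higher and RBBP7 (−0.78), HDAC2 (−0.29) and HDAC1 (−0.16) lower. HDAC1 was not called without E545K replicate 1 or 3 or H1047R replicate 2 (−0.15 to −0.16, edgeR adjusted p = 0.0612 to 0.0745). Medians of the list were 0.00, 0.11 and 0.12 in the same order of comparisons. With library totals as the only scaling the counts higher and lower were 6 and 1, 4 and 4, and 1 and 5.

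Genes that govern MYC protein turnover formed a list of 13. The ubiquitin-ligase receptor FBXW7, which marks MYC for degradation, was at 34.3, 35.4 and 34 CPM in WT, 47.1, 48.4 and 47.8 in E545K cells, and 72.7, 75.7 and 71.1 in H1047R cells. SKP2, another ligase receptor that acts on MYC, was at 56.8, 56.3 and 56.8 CPM in WT, 40.9, 40.2 and 39.7 in E545K cells, and 23.3, 22.9 and 19.6 in H1047R cells. The 2 genes stepped in opposite directions through the genotypes without overlap. FBXW7 rose by 0.47 in E545K and 1.08 in H1047R, and SKP2 fell by 0.49 and 1.37 (edgeR adjusted p = 3.66e-07, 1.09e-11, 6.69e-06 and 3.49e-11). AURKA, a mitotic kinase that can shield MYC proteins, rose by 0.63 in E545K and fell by 0.90 in H1047R, and the summed proliferation markers were likewise higher and lower there. The ligase gene HUWE1 and the kinase gene GSK3B rose in H1047R by 0.74 and 0.28, and the deubiquitinase gene USP28 fell by 0.53.

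In all, 3 turnover genes rose and 3 fell in E545K, and 3 rose and 7 fell in H1047R. These were 23.1% each of the 13 in E545K, beside 17.7% and 18.9% of all genes, and 23.1% and 53.8% in H1047R, beside 27.4% and 28.1%. The 7 became 4 with upper-quartile scaling, with protein-coding genes only and without WT replicate 3. Against E545K, 4 were higher and 5 lower (25.9% and 27.3% of all genes), led by AURKA (−1.53), SKP2 (−0.88), CIP2A (−0.71), FBXW7 (0.62) and HUWE1 (0.62). The remaining E545K calls were CIP2A (0.24), SPOP (−0.15) and USP36 (−0.12). CIP2A was not called without E545K replicate 1 (0.21, edgeR adjusted p = 0.0585). SPOP and USP36 were not called without any single WT or E545K library (−0.14 to −0.17 and −0.11 to −0.13, edgeR adjusted p = 0.053 to 0.096 and 0.0618 to 0.137), which leaves 1 fall in E545K. The turnover list had medians of −0.01, −0.12 and −0.02. With library totals as the only scaling, 5 rose and 1 fell in E545K, and 3 were higher and 8 lower between the lines.

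Beside MYC on chromosome 8, CASC11 (0.18, −0.37 and −0.55) differed in the same directions as MYC, and it shares 3.77% of its exon bases with MYC on the opposite strand. MYC is at 87.2 CPM per kb in WT and CASC11 at 12.4, and the counting did not use strand. MYC reads on the shared bases may therefore be a larger part of the CASC11 counts than of its bases, which was not tested. PVT1, a long noncoding RNA downstream of MYC, was at 22.8, 22.4 and 19.3 CPM in WT, 31.5, 31.4 and 31.6 in E545K cells, and 30.4, 35.2 and 59.5 in H1047R cells. Both lines lay above WT, and H1047R overlapped E545K, with replicate 3 far above the others. PVT1 rose by 0.95 in H1047R against WT (edgeR adjusted p = 0.000282), where MYC fell. Its rise in E545K, 0.55 (edgeR adjusted p = 0.0254), was not called without WT replicate 2 or 3 or any E545K library (0.47 to 0.58, edgeR adjusted p = 0.0546 to 0.0995). POU5F1B, the last of the 3 matched neighbours, was low, at 0.178 to 0.414 CPM in WT, 0.279 to 0.498 in E545K and 0.538 to 1.07 in H1047R. It was called higher in H1047R than in WT (1.36, edgeR adjusted p = 0.0052).

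Among 3792 protein-coding genes with a mean of at least 50 CPM, the 5 whose log2 fold changes in both lines against WT lay nearest to those of MYC (0.21 and −0.38) were UBA6 (0.22 and −0.35), HNRNPH1 (0.19 and −0.40), PSMD3 (0.21 and −0.42), MACROH2A1 (0.15 and −0.37) and MTHFD1 (0.22 and −0.32). Their Euclidean distances from MYC were 0.026, 0.031, 0.042, 0.051 and 0.055, from the means of the 9 libraries in 3 genotypes. UBA6 activates ubiquitin, PSMD3 is a proteasome subunit, HNRNPH1 binds RNA, MACROH2A1 is a histone variant and MTHFD1 is a folate enzyme.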

How the data were processed

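RNA of 9 libraries, 3 per genotype, was analysed from 2 deposited tables of gene counts. Per the file headers, the authors' counts were made with featureCounts 2.0.0 over GENCODE 32 exons of hg38, without strand, for every overlapping gene and with the mates of a pair counted singly. Reads of overlapping and antisense genes are therefore shared. Trimming with Trim Galore 0.4.0 and cutadapt, STAR, SAMtools 1.5 and FastQC are listed in the submitters' processing notes, without settings. Identifiers were matched without version to GENCODE 44 symbols (60295 of 60609). Total counts per library are in the report. The limit of 3 counts for a count of 0 covers counting error only.

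Genes were kept by filterByExpr, scaled by TMM and tested in edgeR 4.0.16 (R 4.3.3) by the quasi-likelihood test in 1 model of genotype over all 9 libraries, with Benjamini-Hochberg adjustment over 26412 genes. The SE is the log2 fold change divided by the square root of F. The pooled coefficient of variation was 0.118, so the shared spread is wide for E545K against WT and narrow for H1047R. The labels do not say that replicates are separate cultures, so the p-values reflect spread among these libraries alone, and that spread may be technical. The script was tested on simulated data. Alternatives were other scalings, filters and fits, DESeq2 1.42.0, limma 3.58.1, H1047R counts thinned to 110003513 and each library left out.

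Members and lists were chosen with earlier results of these data known. The text names all members, MYCN, MLXIPL, MGA, TXNIP and ARRDC4, up to 3 called genes with the largest rise and fall per list, genes against a list's direction, and the 5 genes nearest to MYC. Lists are described by counts and medians, with no list test. One listed cofactor gene is not reported here, and its list was counted without it.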

Additional observations from a re-analysis of the deposited data

Results flagged for a closer look

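Changes of several network genes from WT differed between the 2 knock-in lines by the edgeR test of H1047R against E545K. The WT level cancels in that test, but table, depth and genotype still cannot be told apart. On the log2 scale, MYC stood lower in H1047R (−0.58), as did MXD3 (−0.14). The MXD3 difference was not called without any single E545K library, without H1047R replicate 2, with protein-coding genes only, with no filter or with only the 2 genotypes (−0.08 to −0.14, edgeR adjusted p = 0.0598 to 0.133), and most MXD3 counts may be PRELID1 reads. MAX (0.42), MXD1 (0.29), MXD4 (0.49), MXI1 (0.53), MNT (0.23) and MLXIP (0.24) stood higher there. Of the genes beside the members, MGA (0.81), TXNIP (1.73) and ARRDC4 (1.15) also stood higher. TXNIP, MXI1, MXD4 and MYC are the genes among these whose change from WT was called in opposite directions in the 2 lines. The MXD4 fall in E545K was not called when any WT or E545K library was left out.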

How the results depend on the processing

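Each of the 30 member comparisons (10 members, 3 comparisons) was recomputed under 20 alternatives. Of the 600 values, 559 kept their direction and side of the threshold, 22 lost a call, 6 gained one and 13 changed sign, all of these in uncalled differences. The members called ranged from 5 to 7 in E545K against WT, 8 to 9 in H1047R against WT and 7 to 8 between the lines. Sign changes were in MAX in E545K against WT (0.00 with no filter or without E545K replicate 3, −0.03 without WT replicate 1) and, with library totals only, MXD3 (0.07) and MLX (0.02) there. Between the lines they were in MYCL (−0.10 with library totals, −0.01 without E545K replicate 3, −0.09 without H1047R replicate 2) and MLX (0.01 with upper quartiles or no filter, 0.03 with protein-coding genes, 0.00 and 0.03 without E545K or H1047R replicate 3). MGA in E545K became 0.02 with library totals. That scaling also ended the calls of MXD4 (−0.01) and MNT (−0.07) in E545K and of MLXIP between the lines (0.10), and gave calls to MLX in H1047R (−0.15) and between the lines (−0.17). MNT was called in H1047R with upper quartiles (0.13), protein-coding genes (0.14) or at least 1 CPM in all 9 libraries (0.12). The labels' replicate numbers did not pair libraries (correlations of deviations −0.0348 to 0.0227), and with the number as a replicate block 6, 8 and 8 members were called. The cause of these changes was not tested.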
